A study of Mus musculus with 10 samples.

Results

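Malat1, Neat1 and 6 long noncoding RNAs that host small nucleolar RNAs (Gas5, Snhg1, Snhg3, Snhg8, Snhg11 and Snhg12) were followed in the right atrium of control and Tbx5 mutant mice. They were taken by symbol from the deposited gene table, where all 8 were found among 23337 genes. The choice was made with earlier results of these data known. The right atrium was sequenced in 4 control mice and 6 Tbx5 mutant mice, with 1 library for each mouse. The comparison asks which transcripts differ in the adult atrium after Tbx5 is removed.

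The mutant mice carried a tamoxifen-inducible Cre under the R26 promoter, which is active in nearly all cell types, so that removal of exon 3 of Tbx5 was not limited to cardiomyocytes. The strain was given as mix. Tamoxifen was injected at 0.167 mg per day for 3 days, and tissue was taken 1 week later. The sample labels give an age of 8 to 10 weeks in one field and 6 to 8 weeks in another, in both groups. The alleles of the control mice are not in the labels, and the study gives R26CreERt2 without the floxed allele for the controls of its left atrial RNA. Whether the control mice of the right atrium also received tamoxifen is stated only in a protocol shared by all samples.

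Levels are given as CPM, the counts of a gene per 1000000 counts of the library after its total had been normalized. The targeted gene Tbx5 had 205 ± 17.8 CPM in the control group (SD, n = 4) and 394 ± 83.3 CPM in the mutant group (SD, n = 6). The Tbx5 log2 fold change was 0.94 (SE 0.15, edgeR adjusted p = 0.000495), which goes against the labels for a gene that was removed, and a count over the whole gene does not show the state of exon 3. The names control and mutant are those of the labels. Ryr2 and Sln, calcium-handling genes that the study treats as dependent on Tbx5, were lower in the mice labelled mutant. Ryr2 had a log2 fold change of -1.65 (edgeR adjusted p = 2.99e-05) and Sln one of -0.98 (adjusted p = 0.000264). The libraries held 5703775 to 7095141 counts. The ribosomal RNA precursor Rn45s took 38.9% of the counts of mutant mouse M3 and 0.268% to 1.49% of the other 9 libraries, so results are also given without that mouse. The reads of Xist and Ddx3y went against the sex label in 4 of 4 control mice and in 0 of 6 mutant mice. The atrial markers Nppa, Myl7, Sln and Myl4 were present in all libraries, with a summed level of 39387 to 44180 CPM in control and 16499 to 31514 CPM in mutant mice. Summed leukocyte markers stood at 128 to 186 and 208 to 293 CPM, and smooth muscle markers at 77.1 to 134 and 142 to 530 CPM. Among the smooth muscle markers, Acta2 and Tagln were higher, with log2 fold changes of 1.98 and 2.01 (edgeR adjusted p = 0.000339 and 0.000378). Myh11 did not pass the test (0.23, adjusted p = 0.552). In such bulk tissue, fewer cells of a type and less RNA per cell cannot be told apart.

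Malat1 and Neat1 are unspliced or little spliced RNAs that stay in the nucleus. Malat1 collects in nuclear speckles, where splicing factors are stored, and the long form of Neat1 is the scaffold on which paraspeckles assemble. The hosts Gas5 and Snhg1, Snhg3, Snhg8, Snhg11 and Snhg12 work differently: small nucleolar RNAs (snoRNAs) are cut out of their introns and guide the chemical modification or cleavage of ribosomal RNA, while the spliced exons of several hosts begin with a run of pyrimidines (a 5′ terminal oligopyrimidine, or TOP, start) and are degraded by nonsense-mediated decay when translated. Most ribosomal protein genes share the TOP start, and some of them also carry snoRNAs.

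In GENCODE M21 (GRCm38, which corresponds to the build mm10 of the submitters), Malat1 lies on the reverse strand at chr19:5795690-5802672 and Neat1 close by on the same strand at chr19:5824708-5845478. Snhg1 is on the forward strand of the same chromosome at chr19:8723475-8726443. Snhg3 at chr4:132348014-132353686 (reverse) and Snhg12 at chr4:132308623-132311024 (forward) are neighbours on opposite strands, with Trnau1ap between them. Gas5 is at chr1:161034422-161038539 (forward), Snhg8 at chr3:123507552-123508404 (reverse) and Snhg11 at chr2:158375638-158386145 (forward). The union of annotated exons runs from 853 bases for Snhg8 to 20771 bases for Neat1. Distinct snoRNA loci inside the genes numbered 9 in Gas5, 8 in Snhg1, 4 in Snhg12, 2 each in Snhg3 and Snhg11, 1 in Snhg8, and 0 in Malat1 and Neat1. Snhg11 is typed as protein coding in this annotation.

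The start regions of Gas5, Snhg1, Snhg12 and Snhg8 are shown because these are the members whose unadjusted p in the group comparison was under 0.05. They are RefSeq windows of GRCm38.p6, from 35 bases before to 50 bases from the annotated start, read along the gene. Capitals mark the letters TATA that begin 20 to 35 bases before the start, and the run of C and T that covers the first transcribed base.
Gas5 (chr1:161035131-161035215, forward, the second of 2 windows): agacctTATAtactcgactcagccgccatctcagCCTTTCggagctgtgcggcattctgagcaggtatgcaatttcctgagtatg
Snhg1 (chr19:8723452-8723536, forward): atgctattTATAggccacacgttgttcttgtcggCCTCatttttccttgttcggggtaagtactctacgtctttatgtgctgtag
Snhg12 (chr4:132308643-132308727, forward): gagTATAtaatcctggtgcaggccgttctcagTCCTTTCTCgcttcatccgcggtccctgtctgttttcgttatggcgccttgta
Snhg8 (chr3:123508287-123508371, reverse): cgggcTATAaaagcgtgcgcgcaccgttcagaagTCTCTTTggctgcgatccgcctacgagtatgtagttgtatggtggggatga

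Windows were found for 7 of the 8 members, 8 windows in all, among 32851 windows of 300 bases (250 before the start, 50 from it). The letters TATA at that distance, on the strand of the gene, were in 4 of the 8 member windows and in 5.1% of all windows. The TATA search was added after these sequences had been read. A pyrimidine run of 5 or more over the start was in 3 of the 8 member windows (9 bases in Snhg12, 7 in Snhg8 and 6 in Gas5) and in 10.1% of all windows, and the run of Snhg1 measured 4 bases. The T-box core letters AGGTGT, searched on both strands over the whole window, were in 1 member window, that of Snhg3, and in 13.7% of all windows. These matches are a description of letters, not of bound sites. The Gas5 window that is not shown had no TATA at that distance and no run of C and T over its start.

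Gas5 and Snhg1 were higher in the Tbx5 mutants past the threshold of the edgeR test, and no tested member was lower past it. Of the 8 members, 7 had enough reads to be tested and Snhg11 did not. At an adjusted p under 0.05, 2 of the 7 were higher and 0 were lower, beside 16.3% and 15.0% of all 13084 genes tested. With a fold change over 1.5 as well, 1 member was higher (Snhg1), beside 8.50% of all genes higher and 7.16% lower. Each of the 5 tested hosts had a positive log2 fold change, as did 49.4% of all tested genes. The median of these hosts was 0.33, while the median over all tested genes was -0.00495. Another fit removed each library's trend on the length of the longest transcript. In that fit Snhg1 had 0.61, Gas5 0.24, Snhg12 0.15, Snhg8 0.04 and Snhg3 -0.14. Every mutant mouse stood above every control mouse for 3 of the 7 members, beside 11.7% of all genes, and below for 0, beside 11.0% of all genes. Unadjusted p was under 0.05 for 4 of the 7 members, beside 5596 of all 13084 genes tested.

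**Figure D1:**
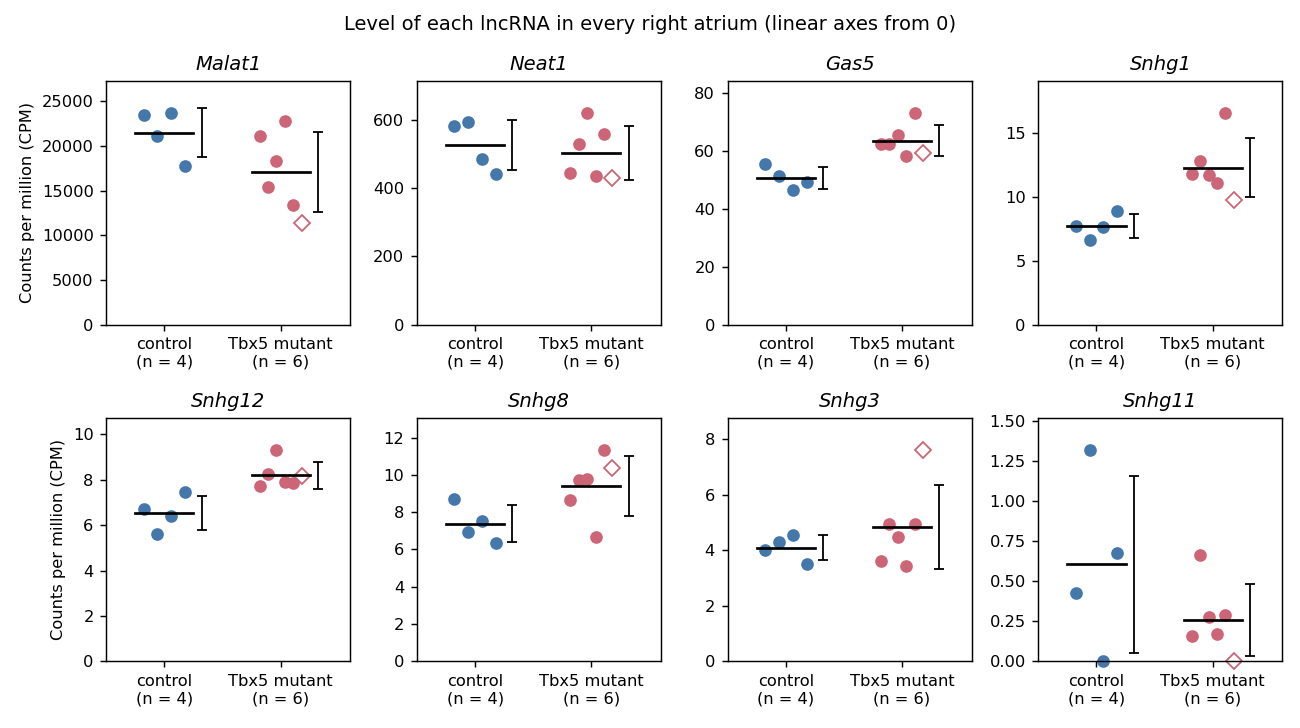
Level of each of the 8 lncRNAs in CPM (vertical axes, linear from 0) in every right atrium, with 4 control mice in blue and 6 Tbx5 mutant mice in red. Black lines are group means, bars are the SD, and the open diamond is mutant mouse M3, the library rich in Rn45s. The red points of Gas5, Snhg1 and Snhg12 all lie above the blue ones, whereas those of the other 5 overlap them.

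Malat1 was the most abundant member by far and ranked 5 among all genes by mean CPM. Its share of a library's counts was 1.84% to 2.42% in control mice and 0.73% to 2.32% in mutants. Control mice M1, M2, F1 and F2 had 23415, 21130, 23710 and 17706 CPM, and the mutants ranged from 11345 through a median of 16848 to 22770 CPM. Mutants M3, M2 and F2 lay below all controls, while mutants M1, F1 and F3 lay within the control range, so that the groups overlapped. The log2 fold change was -0.33 (SE 0.20, 95% interval -0.77 to 0.10, edgeR adjusted p = 0.23), and -0.24 without mutant M3 (adjusted p = 0.322). The coefficient of variation was 12.9% in control and 26.2% in mutant mice.

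Neat1 had 3101 to 4069 reads in control mice and 1578 to 4454 in mutants. The control mice (M1, M2, F1, F2) stood at 581, 594, 486 and 442 CPM, and mutants at 430 to 621 CPM with a median of 486. Mutant F3 had the highest value of all 10 mice and mutants M3 and M1 the lowest, with the other values interleaved. The difference was -0.06 on the log2 scale (95% interval -0.35 to 0.22, edgeR adjusted p = 0.742). The direction changed with the mice and with the treatment of length: without control M2 it was 0.01 (adjusted p = 0.983), and with each library's trend on the length of the longest transcript removed it was 0.42 (adjusted p = 0.0707). The annotated transcript used there, of 20771 bases, is the longest of the members, and gene counts do not separate it from the short form of Neat1.

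Frmd8, the gene beyond Neat1, did not pass the test either, with a log2 fold change of 0.20 (edgeR adjusted p = 0.136). Of 19 paraspeckle protein genes tested, 1 was higher and 1 lower (5.26% each way, beside 16.3% higher and 15.0% lower of all genes). Hnrnpk, whose product takes part in the choice of the Neat1 isoform, was higher by 0.36 on the log2 scale (SE 0.08, edgeR adjusted p = 0.00324). The core paraspeckle proteins Sfpq, Nono and Pspc1 had log2 fold changes of 0.02, 0.20 and -0.13, none past the threshold.

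Nuclear speckle and SR protein genes, whose products share the speckle with Malat1, had 1 member higher and 4 lower of 24 tested (16.7% lower, near the 15.0% of all genes), with a median log2 fold change of -0.12. The scaffold gene Srrm2 was lower, at 353 CPM in control and 206 CPM in mutant mice (log2 fold change -0.77, SE 0.12, edgeR adjusted p = 0.000275). Srrm1, a splicing coactivator, was lower with a log2 fold change of -0.71 (SE 0.10, adjusted p = 0.000186), and Son, the other scaffold of the speckle, with -0.42 (SE 0.15, adjusted p = 0.0413). The splicing factor Srsf2 was higher by 0.35 (SE 0.08, adjusted p = 0.00629). With the length trend removed, Srrm2 (-0.53) and Srrm1 (-0.65) were lower, while Son had -0.18 (adjusted p = 0.221) and Srsf2 had 0.21 (adjusted p = 0.0514). The counts were again 1 higher and 4 lower, but with other genes among them: Srsf1 was the higher gene (0.24, adjusted p = 0.0327) and Srsf11 joined the lower ones (-0.25, adjusted p = 0.0461).

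Gas5, a TOP RNA with C/D box snoRNAs in its introns, was the most abundant host. Levels were 55.7, 51.5, 46.4 and 49.3 CPM in controls M1, M2, F1 and F2, from 296 to 390 reads. Mutants ranged from 58.3 through a median of 62.6 to 73.2 CPM, from 218 to 503 reads. All 6 mutants, M3 included, stood above all 4 controls, with the smallest gap between control M1 and mutant M1 and the highest level in mutant M2. The means were 50.7 ± 3.93 (SD, n = 4) and 63.6 ± 5.39 CPM (SD, n = 6), a difference larger than either SD. Gas5 thus rose by a log2 fold change of 0.33 (SE 0.09, 95% interval 0.14 to 0.52, edgeR adjusted p = 0.0132). The two-sided exact permutation test on log2 CPM over the 210 ways to choose 4 of 10 mice gave p = 0.00952, the smallest this design allows.

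**Figure D2:**
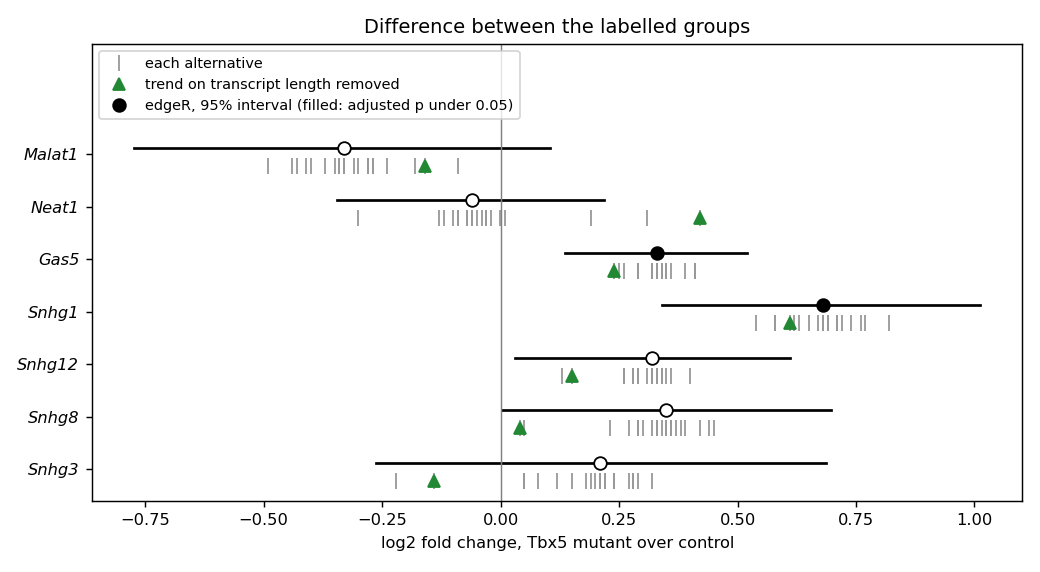
Log2 fold change of the 7 tested lncRNAs, Tbx5 mutant over control (horizontal axis). Black circles with lines are the edgeR value and its 95% interval, filled where the adjusted p was under 0.05, grey ticks are the alternative settings, and green triangles are the values with the trend on transcript length removed. Gas5, Snhg1, Snhg8 and Snhg12 stay right of 0 under all settings, while the triangle of Neat1 lies at 0.42 and that of Snhg3 at -0.14.

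The adjusted p of Gas5 lay near the threshold once transcript length was taken into account. Without mutant M3 its log2 fold change was 0.35 (edgeR adjusted p = 0.0167). With the length trend removed it was 0.24 and the adjusted p was 0.049, and with the trend on the median transcript length, 0.24 and 0.0561. Serpinc1, the gene of antithrombin and a neighbour of Gas5, had at most 7 reads in any library. The Gas5 snoRNA Snord47 had 4 to 12 reads in control and 4 to 10 in mutant mice, and Mir5117 had 0 in all.

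Snhg1 showed the largest fitted difference among the 7 tested members. Reads numbered 40 to 66 in control and 36 to 114 in mutant mice. This gave 7.72, 6.62, 7.68 and 8.93 CPM in controls M1, M2, F1 and F2, and 9.80 to 16.6 CPM with a median of 11.8 in mutants. Again every mutant stood above every control, with the nearest values in control F2 and mutant M3 and the highest in mutant M2. Means were 7.74 ± 0.946 (SD, n = 4) and 12.3 ± 2.32 CPM (SD, n = 6), a fold of 1.6 and a log2 fold change of 0.68 (SE 0.16, 95% interval 0.34 to 1.01, edgeR adjusted p = 0.00536). The exact permutation test gave p = 0.00952, the smallest possible here.

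The Snhg1 value held without mutant M3 (0.72 on the log2 scale, edgeR adjusted p = 0.00493), with the trend on the longest transcript removed (0.61, adjusted p = 0.00953) and with the trend on the median transcript removed (0.58, adjusted p = 0.0109). Whether its difference was larger than that of Gas5 was not tested, and the 95% intervals of both overlap. The genes beside it did not pass the test. Slc3a2, a subunit of amino acid transporters that lies 106 bases from Snhg1 on the opposite strand, had a log2 fold change of -0.08 (95% interval -0.32 to 0.15, adjusted p = 0.603), and Wdr74, a ribosome assembly factor, one of 0.24 (adjusted p = 0.222).

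The snoRNAs of these hosts that appear in the gene table are shown for Gas5 (Snord47) and Snhg1 (Snord22), from GENCODE M21 transcripts. Capitals mark the best match to the C box near the 5′ end and a match to the D box near the 3′ end, the paired signals that bind the snoRNA proteins. They were found by matching TGATGA with at most 1 mismatch and the last CTGA. In Snord47 the letters TGATGT, which overlap the start of the marked match, also meet that rule. Which of these is the C box was not tested.
Snord47 (chr1:161038082-161038158, forward, 77 bases): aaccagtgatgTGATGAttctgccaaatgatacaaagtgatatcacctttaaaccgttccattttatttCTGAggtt
Snord22 (chr19:8725866-8725991, forward, 126 bases): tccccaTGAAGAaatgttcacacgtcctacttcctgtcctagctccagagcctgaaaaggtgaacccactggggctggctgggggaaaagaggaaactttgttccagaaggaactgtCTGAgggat

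Snord22 had more reads than its host, 216 to 484 in control and 202 to 353 in mutant mice, and its mean level was not the higher one in mutants. The level of Snord22 was 61.2, 80.1, 33.9 and 44.1 CPM in controls M1, M2, F1 and F2, and 30.7 to 79.5 CPM with a median of 39.4 in mutants. The groups overlapped, and the highest mutant value was that of M3. The difference on the log2 scale was -0.30 (SE 0.27, 95% interval -0.89 to 0.28, edgeR adjusted p = 0.421), and with the length trend removed it was -0.63 and passed the threshold (adjusted p = 0.035). Reads of Snord22 per read of Snhg1 ranged from 4.41 to 12.1 in control mice and from 1.94 to 8.11 in mutants, with 5 of 6 mutants below all controls. The log2 of that ratio was lower by 0.95 in mutants, a difference that did not pass the two-sided exact permutation test (p = 0.0667, a test added after the values were seen). The exception was mutant M3, at 8.11. Without that mouse the difference was -1.19 and every mutant left lay below all controls. The exact permutation test then had to give p = 0.0159, the smallest that 4 and 5 mice allow. Leaving out any other mouse gave p from 0.0714 to 0.167. How the library recovers RNA of snoRNA length, and how reads were counted that overlap both a snoRNA and an exon of its host, is not given in the sources used here.

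**Figure D3:**
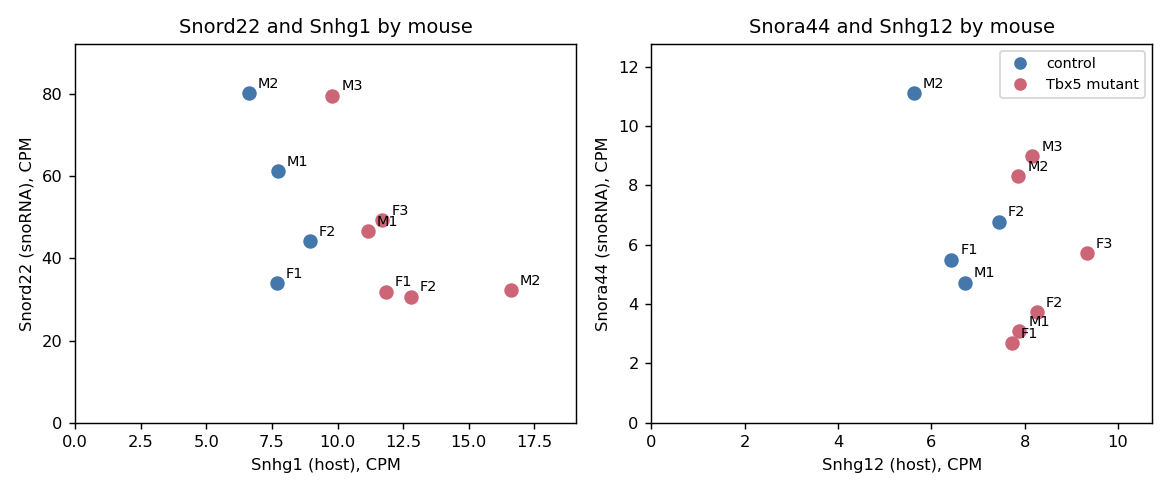
Level in CPM of a host (horizontal axes) and of a snoRNA inside it (vertical axes) in each mouse, Snhg1 with Snord22 at left and Snhg12 with Snora44 at right, control mice in blue and Tbx5 mutant mice in red. The red points lie to the right of the blue ones for both hosts, whereas the groups overlap along the vertical axis for both snoRNAs.

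Snhg12 carries Snora16a, Snora44, Snora61 and Snord99 in its body. Its own level was 6.71, 5.63, 6.43 and 7.44 CPM in controls M1, M2, F1 and F2, from 34 to 55 reads, and mutants had 7.73 to 9.34 CPM with a median of 8.03, from 30 to 67 reads. The mutants again stood above all controls, mutant F3 apart from the other 5, which lay within a narrow range. The log2 fold change was 0.32 (SE 0.14, 95% interval 0.03 to 0.61) and did not pass the threshold over all genes (edgeR adjusted p = 0.085), while the exact permutation test for this gene alone gave p = 0.00952. With the length trend removed it was 0.15 (adjusted p = 0.439). Of its snoRNAs, Snora44 had a log2 fold change of -0.40 (adjusted p = 0.394), Snora16a one of 0.32 (adjusted p = 0.48) and Snora61 one of 0.08 (adjusted p = 0.886). Snord99 had at most 5 reads in any library and was not tested. The ratio of Snora44 to Snhg12 reads was lower by 0.77 on the log2 scale in mutants (exact permutation p = 0.143). The neighbours Taf12, a subunit of the general factor TFIID, and Trnau1ap, which takes part in selenocysteine incorporation, had log2 fold changes of -0.15 (adjusted p = 0.365) and -0.04 (adjusted p = 0.829).

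Snhg8, a host of the H/ACA snoRNA Snora24, had 42 to 61 reads in control and 38 to 78 in mutant mice. Controls M1, M2, F1 and F2 had 8.72, 6.95, 7.53 and 6.36 CPM, and mutants 6.69 to 11.4 CPM with a median of 9.74. Mutants F2, F3, M2 and M3 stood above all controls, mutant F1 just under control M1, and mutant M1 among the lowest mice. The log2 fold change was 0.35 (SE 0.16, 95% interval 0.003 to 0.697, edgeR adjusted p = 0.114), and 0.04 with the length trend removed (adjusted p = 0.864). Without mutant M1 it was 0.42 with an adjusted p of 0.0413, past the threshold. Snora24 was listed with 0 reads in all 10 libraries. The neighbours Prss12, a serine protease gene, and Ndst3, a gene of heparan sulfate synthesis, had -0.29 (adjusted p = 0.343) and 0.32 (adjusted p = 0.547).

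Snhg3, which carries Snora73a and Snora73b, guides of ribosomal RNA cleavage, was the least abundant tested member, with 26 to 29 reads in control and 20 to 37 in mutant mice. Controls M1, M2, F1 and F2 had 4.0, 4.30, 4.55 and 3.52 CPM, and mutants 3.43 to 7.62 CPM with a median of 4.70. Mutant M3 had the highest value, well above the other 5 mutants, which overlapped the controls. For Snhg3 the log2 fold change was 0.21 (95% interval -0.26 to 0.69, edgeR adjusted p = 0.491). It was 0.08 without mutant M3 (adjusted p = 0.802) and -0.14 with the length trend removed. The exons of Snhg3 are shared with other genes: 71.5% of their bases lie under the antisense gene Gm17300 and 13.69% are also exon of Rcc1 on the same strand, and no source used here says that strand was used in counting. Rcc1, which loads Ran with GTP on chromatin, was higher in mutants, at 6.50 ± 0.319 CPM (SD, n = 4) and 10.2 ± 1.43 CPM (SD, n = 6), with every mutant above every control (log2 fold change 0.65, SE 0.14, adjusted p = 0.00363). Phactr4, the nearest gene on the other side and a regulator of protein phosphatase, was lower (log2 fold change -0.43, adjusted p = 0.0401).

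Snhg11 was at the limit of detection. Controls M1, M2, F1 and F2 had 3, 8, 0 and 5 reads, and the mutants 0 to 5. Pooled over mice, per 1000000 counts as deposited, this was 0.61 in control (exact 95% interval 0.349 to 0.991) and 0.296 in mutants (0.148 to 0.529), intervals that cover counting error only. The difference of mean log2 CPM was -0.44 (two-sided exact permutation p = 0.276) and was not detectable at this depth. Without control F1, the control with 0 reads, it was -0.77 (exact permutation p = 0.0476). Snhg11 is known as a neuronal transcript. The 10 neuron markers summed to 37.4 to 49.3 CPM in control and 16.8 to 21.6 CPM in mutant mice, but the lower sum was that of Dbh (log2 fold change -1.78). Of the 4 markers tested, Dbh was lower, Tubb3 was higher (1.93, edgeR adjusted p = 0.0121), and Uchl1 (0.29) and Stmn2 (-0.15) did not pass. Their part in the value of Snhg11 was not tested. Its neighbours moved in opposite directions, Lbp higher (log2 fold change 0.54, edgeR adjusted p = 0.0257) and Ralgapb lower (-0.28, adjusted p = 0.0322).

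Per kilobase of annotated exon, the order of the levels in control mice was Malat1 (3077 ± 397 CPM per kb), Neat1 (25.3 ± 3.54), Gas5 (13.5 ± 1.04), Snhg8 (8.66 ± 1.18), Snhg3 (4.15 ± 0.449), Snhg12 (2.73 ± 0.313), Snhg1 (2.61 ± 0.319) and Snhg11 (0.0713 ± 0.0649), each with the SD over 4 mice. Only Snhg12 and Snhg1 had overlapping ranges among neighbours in that order. In mutants Snhg1 (4.15 ± 0.781) stood above Snhg12 (3.42 ± 0.245), between it and Snhg3 (4.91 ± 1.53, SD over 6 mice), and the ranges of these 3 overlapped. Annotated exons include retained introns in Gas5, Snhg1 and Snhg12, so that a value per kilobase is a lower estimate for their spliced forms. The exon lengths are those of GENCODE M21, and the annotation used for counting is not given. The order of the levels per kilobase therefore holds only for these lengths.

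Beyond the members, 8 other noncoding hosts were tested and none passed an adjusted p of 0.05 in edgeR. Their median log2 fold change was 0.16. Dancr, listed as 2700023E23Rik, had 0.70 (adjusted p = 0.0777), Snhg5 0.35 (adjusted p = 0.158), Zfas1, listed as 1500012F01Rik, 0.25 (adjusted p = 0.246) and Epb41l4aos, listed as 2410004N09Rik, 0.24 (adjusted p = 0.54). Snhg4, Snhg7, Rian and Snhg6 had 0.07, -0.01, -0.08 and -0.19. Snhg10 and Snhg9 had too few reads for the test.

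Coding genes that host snoRNAs had 13 higher and 2 lower of 38 tested, with a median of 0.29. The shares were 34.2% higher and 5.26% lower, beside 16.3% and 15.0% of all genes. Rps2 (log2 fold change 1.33, SE 0.36, edgeR adjusted p = 0.0121), Rpsa (0.64, SE 0.20, adjusted p = 0.0237), both proteins of the small ribosomal subunit, and the helicase Eif4a1 (0.60, SE 0.12, adjusted p = 0.00181) were the 3 largest rises among those past the threshold, while the chromatin remodeller Chd8 (-0.51) and the deadenylase scaffold Cnot1 (-0.33) were lower. Rpsa had 0.50 (adjusted p = 0.0604) and Cnot1 -0.10 (adjusted p = 0.418) with the length trend removed. Cytosolic ribosomal protein genes had 23 higher and 0 lower of 59 tested (39.0% higher), with a median of 0.34, close to that of the tested hosts. Many genes, among them Rps2, Rps3, Rpl13a and Rpl32, are in both this list and that of the coding hosts. The counts and medians of these lists are therefore not independent. Without mutant M3 the ribosomal protein genes had 17 higher and 0 lower.

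**Figure D4:**
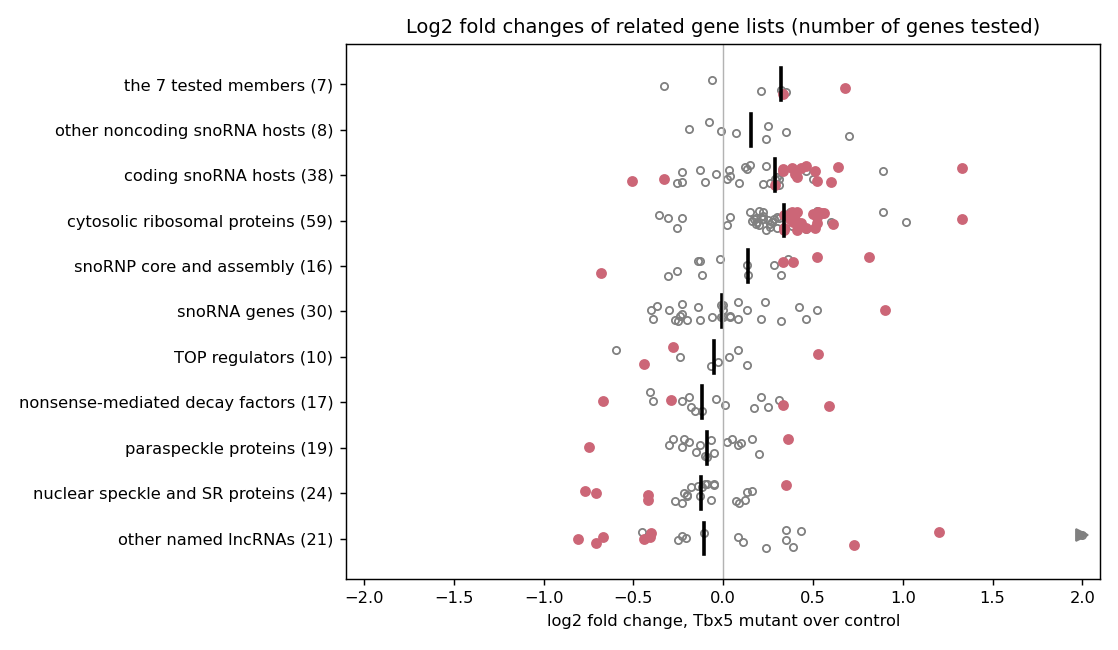
Log2 fold change (horizontal axis) of each tested gene of the lists named at left, with the number tested in parentheses. Filled red circles had an edgeR adjusted p under 0.05, open grey circles did not, black bars are list medians, and the arrow at the right edge stands for Rn45s, at 3.91. The medians of the members, of the coding hosts and of the ribosomal protein genes lie between 0.29 and 0.34, and that of the snoRNA genes is near 0, or -0.30 with the length trend removed (not drawn). The lists of coding hosts and of ribosomal protein genes share many genes.

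These counts moved with transcript length. Genes whose longest transcript is under 1000 bases had a median log2 fold change of 0.28 and 33.0% higher at an adjusted p under 0.05, against -0.09 and 11.8% for transcripts of 3000 bases or more. Across 11868 tested genes with a length, length and log2 fold change had a Spearman correlation of -0.314, a description over genes, which are not independent replicates. With the trend removed, 7 of 59 ribosomal protein genes were higher and 1 lower, with a median of 0.14. Of 38 coding hosts, 7 were higher and 1 lower, with a median of 0.15. Of all 13084 tested genes, 1944 were higher and 1723 lower in that fit. The part of the length trend in the values of Gas5, Snhg8 and Snhg12 was not tested beyond these fits.

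The snoRNP genes, whose proteins bind the snoRNAs, had 4 higher and 1 lower of 16 tested. Nhp2 (0.81, SE 0.16, edgeR adjusted p = 0.00191) and Nop10 (0.39, SE 0.10, adjusted p = 0.00997), core proteins of the H/ACA particle, and Nop56 (0.52, SE 0.13, adjusted p = 0.00729), a core protein of the C/D particle, were higher. Naf1, an H/ACA assembly factor, was lower (-0.68, SE 0.20, adjusted p = 0.0185), and Dkc1, the pseudouridine synthase, had -0.13 (adjusted p = 0.5). With the length trend removed Nop10 had 0.16 (adjusted p = 0.158), 3 genes were higher and 1 lower, and the list's median went from 0.14 to -0.051. Fibrillarin, Fbl, had too few reads. Of 119 snoRNA genes listed, 30 were tested, 1 (3.33%) was higher (Scarna9, 0.90, adjusted p = 0.0375) and 0 lower, with a median of -0.01. That count changed with the length trend removed, when 0 were higher and 5 lower, Snord22 among them, the median was -0.30 and Scarna9 had 0.62 (adjusted p = 0.159).

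Nonsense-mediated decay factors had 2 higher and 2 lower of 17 tested (11.8% each way, beside 16.3% higher and 15.0% lower of all genes). The central helicase Upf1 (-0.29, edgeR adjusted p = 0.0378) and its partner Upf2 (-0.67, adjusted p = 0.0148) were lower, and Upf3a (0.59, adjusted p = 0.00408) and Eif4a3 (0.33, adjusted p = 0.012) higher. With the length trend removed the counts were 1 higher (Upf3a) and 1 lower (Upf2), with Upf1 at -0.22 (adjusted p = 0.091) and Eif4a3 at 0.16 (adjusted p = 0.191). Of 10 genes that control TOP RNAs, the mTOR inhibitor Tsc1 (-0.44, adjusted p = 0.0017) and the TOP-binding protein Larp1 (-0.28, adjusted p = 0.022) were lower and the translation repressor Eif4ebp1 (0.53, adjusted p = 0.0134) was higher. Larp1 had -0.10 (adjusted p = 0.353), Tsc1 -0.23 (adjusted p = 0.0416) and Eif4ebp1 0.40 (adjusted p = 0.0272) with the length trend removed. Mtor, Rptor, Tsc2, Rheb, Cnbp, Ssb and Eif4ebp2 did not pass, with log2 fold changes from -0.60 for Eif4ebp2 to 0.13 for Rheb.

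The 2 hosts that passed went the other way from most lncRNAs that did. Among 338 other tested genes of RefSeq type lncRNA, a list formed after the members' values were known, 18 (5.33%) were higher and 91 (26.9%) lower, with a median of -0.34, and the count was 13 and 102 with the length trend removed. Of 21 named lncRNAs and structural RNAs tested, 2 were higher and 6 lower (9.52% and 28.6%, beside 16.3% and 15.0% of all genes). Those lower by the most were Jpx and Ftx, lncRNAs beside Xist that are listed as Enox (-0.81, edgeR adjusted p = 0.0225) and B230206F22Rik (-0.71, adjusted p = 0.0137), and the imprinted Peg13 (-0.67, adjusted p = 0.000747). The microRNA host Mir22hg, listed as 2210403K04Rik (1.20, adjusted p = 0.000259), and Carmn, listed as E330013P06 (0.73, adjusted p = 0.00431), were higher. Rmrp and Rpph1, RNAs of the ribonuclease MRP and P particles, had 0.39 and 0.35 and did not pass.

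For each member the pair of genes with the most similar profile over the 10 libraries was sought among 9276 genes of mean CPM of 10 or more, by Pearson's r of log2 CPM. Gas5 was closest to Rap1b (r = 0.982) and the collagen gene Col5a1 (0.976). Snhg1 was closest to Thbs1, which encodes thrombospondin (0.984), and Fam46b (0.963), Snhg12 to glutamine synthetase Glul (0.953) and Grhpr (0.937), and Snhg8 to Tinagl1 (0.956) and Smyd2 (0.936). Malat1 was closest to Enox2 (0.983) and to Thoc2 (0.979), a subunit of the mRNA export complex, Neat1 to Ctnnd1 (0.914) and Tiam1 (0.902), Snhg3 to Tor2a (0.91) and Hbxip (0.893), and Snhg11 to Arhgap17 (0.896) and Dhx9 (0.864). The points share libraries, depth and the group difference, and these are the highest of many values, so they stand as a description. Within groups, deviations of Gas5 from the group mean went with those of Neat1 (r = 0.72), Snhg8 (0.64) and Snhg1 (0.58), and those of Snhg3 ran against Malat1 (-0.76), over 10 mice and again as a description.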

How the data were processed

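RNA-seq of right atria from 4 control and 6 Tbx5 mutant mice was analysed, with groups taken from the labels. The authors deposited counts of reads per gene and library, whole numbers without normalization, and a signal, the same counts scaled by the authors with a size factor for each library. The table also holds the authors' own comparison as deposited (mean signal, log2 fold change with its standard error, Wald score, p-value and adjusted p-value, and a linear fold ratio), which was not used. The submitters' processing notes name FastQC, TopHat2 2.0.11, featureCounts, DESeq2 and mm10; the settings, the annotation and the use of strand are not given in the sources used here. The labels describe both an mRNA kit and total RNA without ribosomal RNA. All columns of per-library values belong to the 10 samples, and 0 others were present.

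Counts were tested with edgeR 4.0.16 in R 4.3.3 (expression filter, TMM scaling, quasi-likelihood test of the 2 groups with no covariate, prior count 0.125, Benjamini-Hochberg adjustment over 13084 genes). A call needed an adjusted p under 0.05, a fold change over 1.5 and a mean deposited signal in control mice over 1. The exact permutation test and the likeness of profiles used log2 of CPM plus 0.5. The length trend was removed as offsets, by a lowess curve of span 0.4 per library on the longest GENCODE M21 transcript. Total counts were 5703775 to 7095141, so 3 counts, the floor taken as detectable, are 4.23e-05% to 5.26e-05% of a library, for counting error only. Nothing says more than that each library is 1 mouse, so p-values measure the spread between these mice.

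Members and lists were chosen with earlier results of these data known. Named were all members, their nearest and overlapping genes, their snoRNAs, up to 3 genes past the threshold each way per list, all genes of short lists and the 2 most similar profiles. Sfpq, Nono, Pspc1, Dkc1, Fbl, Rmrp and Rpph1 were added for their roles after values were seen. Some genes that this rule names are not reported here. Alternatives were other prior counts (0.1 and 5), filters (none, and a mean of at least 50), scalings, DESeq2 1.42.0, limma 3.58.1, sex, replicate and length or GC terms, single labelled sexes, single libraries left out, counts without Rn45s and other thresholds.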

Additional observations from a re-analysis of the deposited data

Results flagged for a closer look

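Of 26 groups of values examined (the members, Snord22, Snora44, Rcc1, Tbx5 and the share of Rn45s, in each labelled group), 3 held 1 mouse far from the rest, and chance flags about 1 in 20, or 1.3 of 26. The share of Rn45s reached 38.9% in mutant M3 and stayed between 0.268% and 0.582% in the other mutants. Snhg3 was at 7.62 CPM in the same mouse, from 28 reads, against 3.43 to 4.95 CPM, and without it the log2 fold change of Snhg3 was 0.08 in place of 0.21. Snhg12 was at 9.34 CPM in mutant F3, against 7.73 to 8.26 CPM in the other mutants, and the 4 controls lay below all of these. No explanation was tested for these values.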

How the results depend on the processing

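Without a fold change threshold 4096 genes were called (2129 higher, 1967 lower), with a fold change over 2, 906 (539 and 367), and with a mean count of at least 50, 1284 of 9983 tested (653 higher); over the fits that each left out one library the calls numbered 1807 to 2205, with 983 to 1169 higher and 824 to 1076 lower. Snhg1 was higher under all 27 of its alternatives (0.54 to 0.82), with an adjusted p of 0.0835 in mice labelled male only (0.82) and 0.0578 in mice labelled female only (0.54), each with 3 mutants and 2 controls. By the reads of Xist and Ddx3y, each subset by labelled sex sets mutants against controls of the other sex. Group and sex therefore cannot be told apart in these subsets. Gas5 was higher under all 27 (0.24 to 0.41), with adjusted p of 0.296 in mice labelled male only (0.25), 0.0561 with the trend on median transcript length removed (0.24, an alternative added after the data were seen) and 0.0857 with the replicate block and the length trend removed together (0.26). Snhg12 was higher under all 26 of its alternatives (0.13 to 0.4) but passed only with limma (0.32, adjusted p = 0.0303). Snhg8 was higher under all 27 (0.04 to 0.45) but passed only without mutant M1 (0.42, adjusted p = 0.0413). Malat1 was lower under all 27 (-0.49 to -0.09), never past the threshold. Neat1 reversed to 0.42 with the length trend removed, 0.31 with the replicate block as well, 0.19 in mice labelled female only and 0.01 without control M2, and Snhg3 to -0.14 with the length trend removed and -0.22 with the block as well. The cause was not tested.

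Members past an adjusted p of 0.05 and higher numbered 1 with the replicate block and length trend removed, with the median length trend removed, in mice labelled female only and at an adjusted p under 0.01, and 0 in mice labelled male only and with a fold change over 2. Leaving out one library in turn gave 2 to 3 such members, and log2 fold changes from -0.44 to -0.24 for Malat1, -0.13 to 0.01 for Neat1, 0.29 to 0.39 for Gas5, 0.58 to 0.76 for Snhg1, 0.08 to 0.28 for Snhg3, 0.29 to 0.45 for Snhg8, 0.26 to 0.40 for Snhg12 and, as a difference of mean log2 CPM, -0.77 to -0.15 for Snhg11. Same-labelled mice of the groups are different animals, and their deviations correlated at -0.00712 on average over 4 pairs, against 0.00129 over 20 other pairs, so the labels pair no libraries. With the replicate block 1957 genes were called, Snhg1 had 0.74 (adjusted p = 0.0141) and Gas5 0.34 (adjusted p = 0.043). Snhg11 was fitted by edgeR only without the filter on low counts (-1.0, adjusted p = 0.349), and the other fits dropped it, as a mean count of at least 50 dropped Snhg3 and Snhg12. Depth limits Snhg1, Snhg3, Snhg8 and Snhg12, which have 20 to 114 reads in a library.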
